A study of Mus musculus with 6 samples.

Results

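Open chromatin that appeared between genes in Chd4 knockout β-cells was examined as a set of 4378 autosomal regions. They were chosen by their peak calls. An overlap of 1 bp or more joined the peaks of 6 ATAC-seq lists into 156745 regions. A region was kept if a peak was called in knockout libraries 1, 2 and 3 and in none of control libraries 1, 2 and 3, if it lay outside every protein-coding gene span, and if the nearest span was more than 1 kb and at most 50 kb away. These gained regions made up 27.8% of the 15755 autosomal gained regions, 2.79% of all regions and 13.3% of the 32795 autosomal regions at this distance from genes. Because the calls of all 6 libraries selected them, their presence in knockout and absence in control is a description and carries no test.

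ATAC-seq marks accessible DNA through cuts by the transposase Tn5. The material was mature β-cells, which make insulin in the islets of the pancreas. They were taken from dispersed islets by flow sorting on Tomato, a red fluorescent protein. The control mice and the mice with Chd4 knocked out, termed Chd4Db in the study's design text, had all been given tamoxifen, and each genotype gave 3 libraries. The labels used here give neither the Cre driver nor the age of the mice, and nothing in them ties a library to an animal. P-values here measure only how much these samples vary, and that spread may be technical.

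Chd4 is the ATP-driven helicase of the NuRD complex, which moves nucleosomes, carries histone deacetylases and is known for restraining regulatory DNA as well as for tuning active enhancers. Accessible sites between genes are often enhancers, which bind transcription factors and act on promoters at a distance. In β-cells, factors such as Pdx1, Nkx6-1 and Mafa bind enhancers of insulin and of the secretory machinery, while genes of other cell types are held closed.

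Sequence could be read for the gained regions that overlapped an annotated transcription start, in windows running from 250 bases before to 50 bases after the start (RefSeq, GRCm38.p6). There were 63 such members, 1.44% of all, with 73 start windows, every one of a long noncoding RNA gene. Windows of protein-coding genes could not be among them, because the rule kept regions more than 1 kb from every such span. Several windows overlap because a gene has more than 1 annotated start. Among the 15249 regions between genes at the same distance that were called in all 6 libraries, 511 (3.35%) overlapped a window. In 45 of the 63 members the summit, the point of highest signal, lay inside the window. The 5 windows below belong to strong members whose summit fell inside. They are shown because they hold the pentamer CCAAT, read as ATTGG on the other strand. The window of Gm42210 holds 1 match, and the others at least 2. Capitals mark CCAAT or ATTGG, and each sequence runs 5′ to 3′ on the strand of its gene. Marking this motif was decided after its share had been seen.

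Gm31712: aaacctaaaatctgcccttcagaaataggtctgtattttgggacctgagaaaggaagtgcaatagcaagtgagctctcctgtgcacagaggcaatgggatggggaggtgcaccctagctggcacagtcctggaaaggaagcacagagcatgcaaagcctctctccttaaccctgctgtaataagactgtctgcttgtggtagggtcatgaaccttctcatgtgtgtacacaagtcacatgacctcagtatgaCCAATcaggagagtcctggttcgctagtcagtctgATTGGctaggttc

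1700048O20Rik: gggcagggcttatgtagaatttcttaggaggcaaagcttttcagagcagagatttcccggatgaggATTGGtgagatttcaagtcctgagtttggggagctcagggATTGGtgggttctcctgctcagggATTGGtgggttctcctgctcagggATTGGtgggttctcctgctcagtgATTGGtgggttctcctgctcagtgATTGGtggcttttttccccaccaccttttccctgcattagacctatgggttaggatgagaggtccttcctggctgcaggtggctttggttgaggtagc

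Gm31612: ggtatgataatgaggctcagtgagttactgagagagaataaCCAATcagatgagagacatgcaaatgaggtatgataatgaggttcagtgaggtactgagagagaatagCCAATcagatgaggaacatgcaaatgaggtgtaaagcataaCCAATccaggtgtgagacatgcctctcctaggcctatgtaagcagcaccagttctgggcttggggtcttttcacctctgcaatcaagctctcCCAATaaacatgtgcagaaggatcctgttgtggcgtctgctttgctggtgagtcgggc

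Gm40612: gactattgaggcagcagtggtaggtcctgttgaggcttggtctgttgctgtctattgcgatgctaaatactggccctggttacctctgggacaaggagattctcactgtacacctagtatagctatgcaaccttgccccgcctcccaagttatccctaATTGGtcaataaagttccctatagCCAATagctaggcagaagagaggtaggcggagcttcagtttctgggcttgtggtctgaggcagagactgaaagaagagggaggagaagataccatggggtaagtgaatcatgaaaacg

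Gm42210: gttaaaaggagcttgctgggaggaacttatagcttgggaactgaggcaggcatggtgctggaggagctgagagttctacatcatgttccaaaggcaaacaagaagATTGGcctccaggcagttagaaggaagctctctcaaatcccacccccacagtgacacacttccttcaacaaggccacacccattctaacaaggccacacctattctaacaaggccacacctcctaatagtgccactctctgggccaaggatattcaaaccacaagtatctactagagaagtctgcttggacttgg

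These windows lie at chr13:50595549-50595848 on the minus strand for Gm31712, chr9:121937025-121937324 on the plus strand for 1700048O20Rik, chr5:17931940-17932239 on the plus strand for Gm31612, chr10:22613389-22613688 on the minus strand for Gm40612 and chr3:37770969-37771268 on the plus strand for Gm42210. The authors' fold enrichment at the summit in knockout libraries 1, 2 and 3 was 33.2, 32.9 and 31.5 for the member over Gm31712, and 26.6, 26.8 and 24.5 for the member over 1700048O20Rik. For Gm31612 it was 29.3, 27.5 and 26.9, for Gm40612 31.0, 33.4 and 27.9, and for Gm42210 23.7, 25.5 and 22.0. No control library had a peak at any of them, as the rule required. Their values were close to one another in the 3 knockout libraries and far above the median gained region. The window of 1700048O20Rik holds the motif 6 times, mostly within a repeated phrase, and that of Gm31612 holds it 4 times.

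CCAAT or ATTGG was found in 48 of the 73 windows (65.8%), and in 39 of 63 (61.9%) with 1 window per member. The share was 37.9% of the 593 windows under regions called in all 6 libraries, 35.8% of 11310 noncoding windows and 37.3% of all 31365 autosomal windows. At least 2 matches were present in 38.4% of windows under members, against 9.44% under regions called in all 6. Taking 1 window per member gave 33.3%. Stronger members were those with a mean percentile of −log10 q of at least 50 within the knockout lists. The motif was in 80.0% of their 35 windows, and in 52.6% of the 38 windows of weaker members. These counts are of windows and not of members. Overlapping windows of 1 gene, such as those of Gm31712 and Gm31126, are counted separately. Of the 9 windows under lost regions, called in all 3 control libraries and in no knockout library, 4 had it. The other motifs searched on both strands did not show a gap of this size in the same direction. GGGCGG, the GC box, was in 12.3% of member windows, 27.8% under regions called in all 6 and 36.0% of all windows. CAGATG, an E-box, was in 28.8%, 21.9% and 17.2%, and TGANTCA, the AP-1 element, in 8.22%, 10.5% and 7.85%. TGTTTAC, the forkhead core, was in 5.48%, 7.93% and 3.71%, TAATTA, a homeobox core, in 5.48%, 6.91% and 5.27%, and TATAAA in 11.0%, 14.2% and 13.6%. TGACGTCA, the CRE, was in 0 of 73 member windows and in 2.02% and 1.83% of the other 2 sets. No motif searched contains another, and a match is a match of letters only.

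Many member windows also shared sequence with distant windows. A run of at least 25 bases recurred in another start window on another chromosome or over 10 kb away in 32 of 73 (43.8%), against 8.09% of windows under regions called in all 6, 13.2% of noncoding windows and 12.4% of all windows. With 1 window per member it was 27 of 63 (42.9%). Windows of Gm31126 and 4933433N18Rik, both on chromosome 13, shared 179 bases with each other and 82 bases with that of Gm31712, so peaks at such near-identical copies depend on how the authors assigned reads and are uncertain. Between chromosomes, the window of Gm30467 shared 39 bases with those of Gm30582 and Gm39196 and 36 bases with that of Gm31612. Each of these 4 windows holds CCAAT or ATTGG 4 times, so the motif counts above include windows that share sequence. No repeat annotation was used here, and the part of shared sequence in these calls and in the motif counts was not tested.

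**Figure D1:**
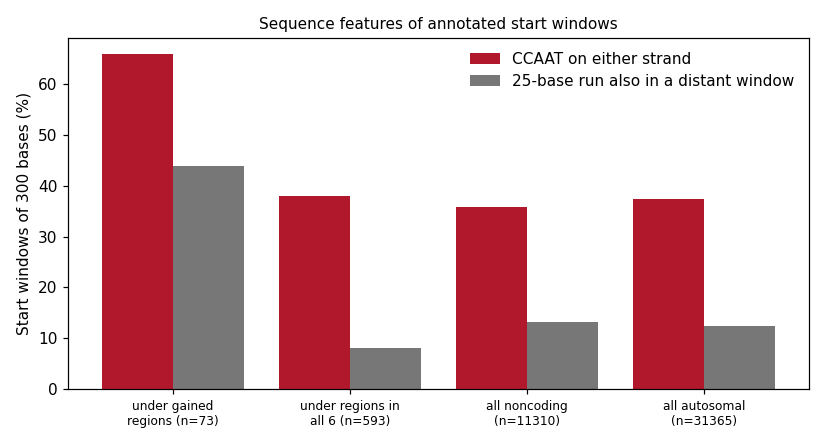
Share of 300-base start windows, in percent, that hold CCAAT on either strand (red) or a run of 25 bases found again in a distant window (grey), for windows under gained regions, under intergenic regions called in all 6 libraries, and for all noncoding and all autosomal windows. Both bars are tallest for the gained regions, at 65.8% and 43.8%.

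MicroRNAs, short RNAs that pair with messenger RNAs through their seed (bases 2 to 8, in capitals), lay near 5 members. Of 1005 hairpins in the RefSeq table, 6 were within 2 kb of a member. The mature sequences are given for the 4 hairpins near members beside Atg2a, Crtac1 and Pdx1.

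miR-192-5p: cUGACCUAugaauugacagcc

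miR-194-5p: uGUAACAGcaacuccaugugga

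miR-3085-3p: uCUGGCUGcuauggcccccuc

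let-7k: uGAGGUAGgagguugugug

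The Mir192 hairpin (chr19:6264844-6264932, plus strand) and the Mir194-2 hairpin (chr19:6264643-6264728, plus strand) lay 822 and 1026 bp from the member at chr19:6265755-6266303, 3450 bp from Atg2a, an autophagy gene. Its fold enrichment was 14.5, 13.5 and 10.7 in knockout libraries 1, 2 and 3. The Mir3085 hairpin (chr19:42280082-42280170, minus strand) lay under the member at chr19:42280059-42280522, with 12.8, 11.9 and 10.2. The let-7k hairpin (chr5:147283189-147283298, minus strand) was 1117 bp from a weak member downstream of Pdx1, with 3.80, 3.48 and 2.43. These 4 mature miRNAs have 4 different seeds.

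Gained regions were narrow, mostly of moderate strength, and sharply placed. Their width had a median of 382 bp (206 to 1452), and the summits of the 3 knockout libraries lay within 50 bp of each other in 3665 of them (83.7%), with a median spread of 22 bp. Fold enrichment had medians of 6.77, 6.92 and 5.65 in knockout libraries 1, 2 and 3, with ranges of 1.91 to 38.9, 1.97 to 38.9 and 1.61 to 35.9. Knockout library 3 was lowest at the median, as it also was over all its peaks (7.68, against 8.65 and 8.69). The median gained region stood at the 38.0, 38.8 and 34.8 percentile of −log10 q within its own list, so a typical member was a weaker peak than most. Members took 2.39% to 2.43% of the bases covered by peaks in each knockout library.

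A tail of gained regions reached the fold enrichment of strong sites shared by all libraries. Fold enrichment was above 20 in all 3 knockout lists for 142 members (3.24%) and above 30 for 21. Of the 823 lost regions at the same distance from genes, 0 exceeded 20 in all 3 control lists, and their highest values were 17.5 to 20. Among 646 regions called in 3 libraries of both genotypes the number above 20 in every calling list was also 0. Among the 15249 called in all 6, which had to exceed 20 in 6 lists and not 3, it was 906 (5.94%). The lists also differ as a whole. Of all peaks, 13.7%, 13.3% and 9.55% exceeded 20 in knockout libraries 1, 2 and 3, and 8.69% to 9.62% in control libraries. Median fold enrichment was 4.52 to 5.13 for lost regions, 3.52 to 4.17 for the mixed ones and 9.97 to 12.4 for those called in all 6. Median widths were 380, 338 and 690 bp. Gained regions were thus stronger by these values than the other classes absent from 3 libraries, and weaker and narrower than those called in all 6. The classes are defined by the calls, and no test was made between them.

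**Figure D2:**
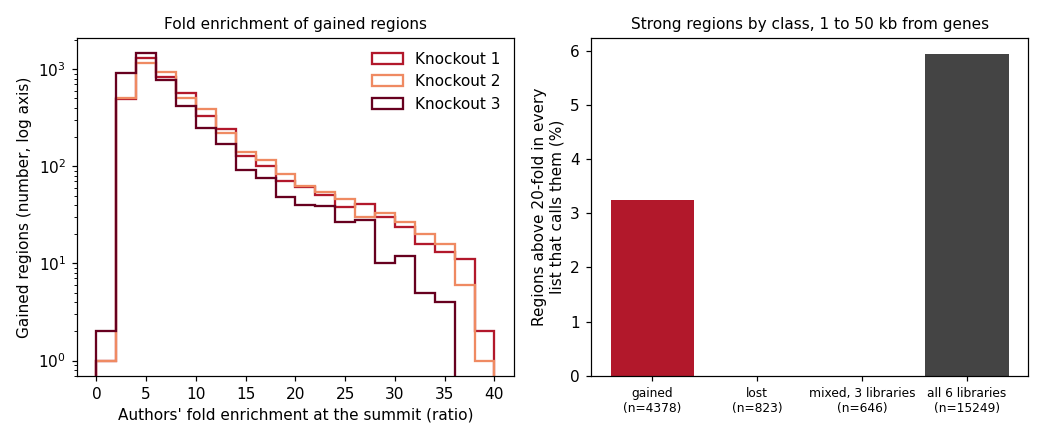
Left, number of gained regions (log axis) by the authors' fold enrichment at the summit in each knockout library. Right, percent of regions above 20-fold in every list that calls them, by class, for regions over 1 and up to 50 kb from genes: 3.24% of gained, 0 of lost and mixed, and 5.94% of regions called in all 6.

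The strongest members lay beside genes of varied function. The member with the highest mean percentile of −log10 q, at chr3:153173373-153174129, was 24144 bp downstream of St6galnac3, a sialyltransferase gene, and overlapped the noncoding gene 1700094M23Rik. Its fold enrichment was 31.2, 30.7 and 26.3 in knockout libraries 1, 2 and 3. A member 10879 bp upstream of Klhl29, a kelch-like gene, at chr12:5386562-5387221, had 38.9, 38.9 and 35.9, the highest fold enrichment of any member in each list. Close to it were the members 30792 bp upstream of Il12a, which encodes an interleukin subunit (chr3:68659144-68659851, 38.2, 37.6 and 30.1), and 8562 bp upstream of Amer3, a regulator of Wnt signaling (chr1:34569760-34570344, 36.9, 38.0 and 34.0). All 3 knockout values were above 25 in each of these 4 regions, while the nearest control peak was between 8876 and 17043 bp away.

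The other members of the 10 strongest were beside Rftn1 (36.4, 36.7 and 33.7), Chst1, a sulfotransferase gene (35.7, 35.4 and 30.5), Zfp365 (34.9, 33.1 and 32.9), Syne3, a nuclear envelope gene (31.5, 32.8 and 28.2), Slc28a3, a nucleoside transporter gene (23.2, 23.2 and 23.8), and Prss54 (19.2, 16.5 and 16.8). A control peak ended 143 bp from the Prss54 member, so that region borders open chromatin of the control. Among all members, a control peak lay within 1000 bp of 527 and within 5000 bp of 2155 (49.2%). The widest members were 1369 bp from Exoc2, an exocyst subunit gene (1452 bp wide), and 1098 bp upstream of Ubtf, a factor for ribosomal RNA transcription (1291 bp wide). Next came members beside Pcgf5, a Polycomb gene, and Klf5, a zinc finger factor (both 1154 bp), and Lysmd4 (1139 bp). Summits in the 5 widest lay within 3 to 45 bp of each other. The Exoc2 member also borders open chromatin of the control, with a control peak 95 bp away. Peaks covered 709, 1399 and 1222 bp of it in knockout libraries 1, 2 and 3. Over noncoding genes lay 789 members (18%), against 22.7% of the regions called in all 6, and 708 of these were over long noncoding RNAs.

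Thresholds of the rule cut through a continuum. Just inside the limit of 1 kb were members at 1007 bp from Olfr62 and 1009 bp from Rnf144b, and just outside it gained regions at 994 bp from Prss45 and 997 bp from Eif3l. Members at 49941 bp from Tnfrsf21 and 49951 bp from Fam222a were just inside the outer limit, and gained regions at 50034 bp from Cpeb4 and 50036 bp from Gzmb just outside. The lowest −log10 q was 1.83, in knockout library 3, for a member upstream of Glg1 whose fold enrichment was 4.62, 3.68 and 2.26. At the border of the calls, 1947 regions at the same distance were called in 2 knockout libraries and no control library, and 1069 in all 3 knockout libraries and 1 control library.

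Distance from genes hardly altered the share of gained regions within the zone. At over 1 to 5 kb, 901 of 6835 autosomal regions (13.2%) were gained, at over 5 to 10 kb 828 of 6352 (13.0%), at over 10 to 20 kb 1102 of 8087 (13.6%) and at over 20 to 50 kb 1547 of 11521 (13.4%). The share of lost regions was 2.74%, 3.13%, 2.39% and 2.12% in the same bands. Inside gene spans 8.28% of regions were gained and 2.82% lost, within 1 kb of a span 11.1% and 3.87%, and beyond 50 kb 13.6% and 2.16%. Gained regions therefore numbered 5.32 per lost region in the zone studied, 2.94 inside spans and 6.30 beyond 50 kb. By chromosome, the gained share ran from 10.8% on chromosome 3 to 15.5% on chromosome 10. Of the 3454 members whose nearest gene has a known strand in the table of starts, 1852 (53.6%) lay upstream and 1602 downstream.

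**Figure D3:**
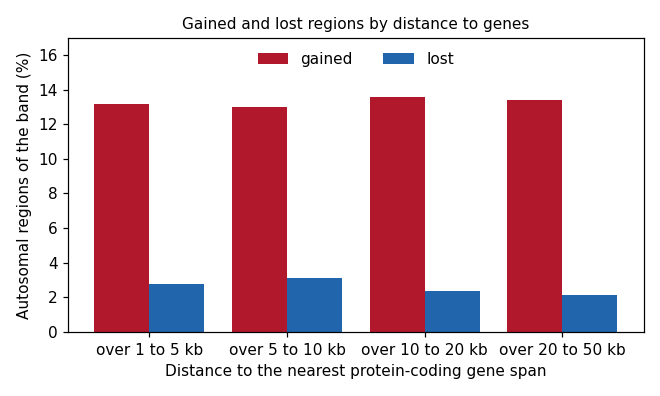
Percent of the autosomal regions in each distance band that were gained (red) or lost (blue), by distance to the nearest protein-coding gene span. The gained bars stay between 13.0% and 13.6%, and the lost bars between 2.12% and 3.13%.

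Gained regions were spread over many genes. They had 3487 different nearest genes, of which 2783 had 1 member, 549 had 2 and 155 had at least 3. Fcnb, a ficolin gene of innate immunity, had the most, with 6 of the 10 regions nearest to it gained and 1 called in all 6 libraries. Snx18, a sorting nexin gene, had 5 of 11, and Mapre2, a microtubule plus-end gene, 5 of 9. The genes with 4 included Zfp365, Gm6569, Tcte2, Mb21d2, Sez6l, Tspan17 and Sipa1l2. For Gm6569, 4 of 8 regions were gained and 0 were called in all 6, whereas for Sez6l, a neuronal membrane protein gene, 4 of 13 were gained and 4 called in all 6. Within 10 kb of another member lay 670 members (15.3%), in 319 groups of at most 4. The densest window of 1 Mb, at 132 Mb of chromosome 1, held 14 gained among 40 regions, next to genes including Elk4, Cdk18, Nfasc and Mdm4, with 0 lost. A window at 100 Mb of chromosome 11, with the keratin genes Krt15, Krt17, Krt19 and Krt35, had 11 of 36 gained and 0 lost.

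Among the regions beside genes that define β-cells, about the overall share was gained, although many of these genes had at least 1 gained region. Of 30 β-cell transcription factors, 16 were nearest to at least 1 member (53.3%, against 16.9% of all 20665 autosomal genes), and 22 of the 188 regions next to the 30 genes (11.7%) were gained, against 13.3% over all genes. Nkx6-1, a factor required for β-cell identity, had a member 13574 bp upstream (chr5:101678286-101678805) with fold enrichment of 15.8, 15.5 and 12.4 in knockout libraries 1, 2 and 3. Pdx1, the master factor of the pancreas, had a member 27806 bp upstream (chr5:147241928-147242290) with 13.3, 11.8 and 7.91 and the weak one near let-7k. Both upstream members had no control peak within 4 kb. Rfx6, an islet factor, had one with 8.69, 9.43 and 8.20, and Sox4 had 3, the strongest with 11.5, 12.8 and 8.35.

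Among genes of insulin secretion, 17 of 44 were nearest to a member (38.6%, against 16.9% of all genes) and 21 of 159 regions (13.2%) were gained. The insulin genes themselves had weak ones. Ins1 had a member 23016 bp upstream with 4.02, 8.54 and 4.90, and Ins2 one at 19069 bp with 4.47, 3.98 and 3.52. Stronger were those beside Cpe, a prohormone-processing enzyme (9.69, 13.7 and 15.8), and Cacna1c, a calcium channel subunit (14.9, 13.4 and 8.67). Of genes of β-cell maturation, 9 of 17 were nearest to a member (52.9%, against 16.9%), with 10 of 58 regions gained (17.2%). Ucn3, a peptide of mature β-cells, had 2, the stronger 6217 bp upstream with 6.71, 7.51 and 6.66.

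Regions next to genes of other cell types varied more by list. The endothelial list had the highest share, with 13 of 46 regions gained (28.3%, against 13.3% over all genes) at 9 of 15 genes (60.0%, against 16.9%). Erg, an endothelial ETS factor, had 3, the strongest 21914 bp upstream (chr16:95608515-95609045) with 22.0, 22.0 and 12.6. Others lay beside Cdh5, the endothelial cadherin (12.1, 13.7 and 17.5), Cldn5, a tight junction claudin (17.6, 10.8 and 10.3), and Vwf, the clotting factor carrier, whose stronger member had 13.1, 13.6 and 10.0. Across the endothelial list, peaks in and within 1 kb of the 15 genes summed to 21571 to 23060 bp in control and 22197 to 23702 bp in knockout libraries, scaled to equal total, and Cdh5 and Tie1 had no peak in their spans in any library. Whether endothelial cells in the sort took part was not tested. Of 15 α-cell genes, 8 were nearest to a member (53.3%, against 16.9%), with 10 of 54 regions gained (18.5%). They included Irx2, with 2, the stronger at 9.84, 9.13 and 8.16, and Tspan8, at 23.4, 21.7 and 19.6.

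The remaining lists had from 2.63% to 14.8% of their regions gained. Progenitor genes had 7 of 68 (10.3%), with a strong one at Sox9, a progenitor and ductal factor (27.3, 28.2 and 20). Genes normally silent in β-cells, often called disallowed, had 9 of 80 (11.2%), ductal genes 7 of 52 (13.5%), macrophage and leukocyte genes 4 of 27 (14.8%) and mesenchymal genes 4 of 34 (11.8%). Immediate early genes had 11 of 77 (14.3%), neuronal genes 9 of 88 (10.2%), NuRD and other Chd genes 6 of 57 (10.5%), SWI/SNF genes 3 of 36 (8.33%), housekeeping genes 2 of 32 (6.25%) and muscle genes 1 of 38 (2.63%). The highest mean percentile among the members named here beside a listed gene, 92.0, was that of one 29208 bp upstream of Arid1b, a SWI/SNF subunit gene, with 37.7, 36.2 and 30.9. The acinar list had 3 members, and all 3 were at the chymotrypsinogen gene Ctrb1, where the values were 10.7, 13.6 and 9.54 for the strongest. Delta, gamma and epsilon cell genes (3 of 23, 13.0%), hepatocyte genes (6 of 46, 13.0%) and cell cycle genes (6 of 53, 11.3%) lay near the overall 13.3%.

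**Figure D4:**
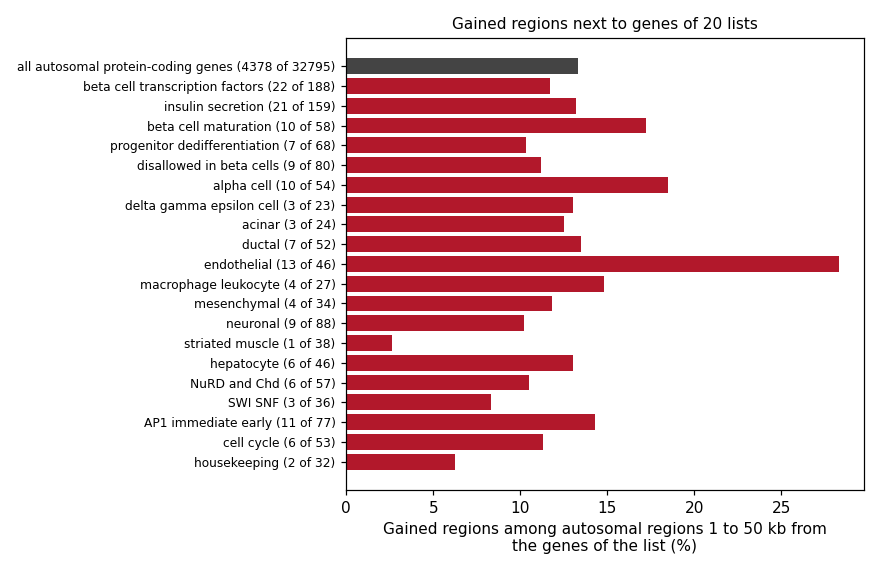
Percent of autosomal regions over 1 and up to 50 kb from genes that were gained, for all protein-coding genes (dark) and for the regions nearest to genes of each of 20 lists (red), with the number gained of the number of regions in brackets. The endothelial bar is the longest at 28.3%, and the muscle bar the shortest at 2.63%, against 13.3% over all genes.

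Markers of the labelled cell type had peaks, but so did genes of other lists. Each of the 30 β-cell transcription factor genes had a peak in its span or within 1 kb in at least 1 library. The same held for all 30 neuronal, 23 disallowed and 17 progenitor genes, so this does not mark the cell type. No library had a peak in the spans of Gcg and Ppy, hormone genes of α- and gamma cells. Gcg was the only such gene among 15 α-cell genes, and Ppy the only one among 13 delta, gamma and epsilon cell genes. Of 15 acinar genes, 6 had no peak, including Cpa1, Prss2 and Pnlip. At the targeted gene Chd4 the mean covered length was 2357 bp in knockout and 2530 bp in control libraries (log2 difference -0.09, SE 0.09, limma adjusted p = 0.43). Peak lists do not measure the deletion, so this checks nothing about the genotype. Knockout libraries held 119088 to 124125 peaks over 65.8 to 69.1 Mb and control libraries 100109 to 110693 over 58.0 to 63.8 Mb. The depth in reads is unknown, and more called peaks in the knockout lists move with the number of gained regions, a link whose part was not tested.

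Chromatin within the nearest genes was then compared by a measure that the members' peaks never enter, the bases under peaks in the gene span and 1 kb on either side, scaled to equal total. The share called lower among nearest genes lay close to that of all genes, and the share called higher was somewhat above it. All genes include the nearest ones, and the difference was not tested. The share called higher was also above that of all genes in every alternative fit, such as 4.96% against 3.43% without knockout library 1. Of 3090 tested, 266 were higher in knockout (8.61%) and 438 lower (14.2%), beside 6.70% higher and 15.1% lower of all 15676 genes tested (limma, Benjamini-Hochberg adjusted p under 0.05). The median log2 difference was -0.10 for nearest genes and -0.11 for all. Of genes with 3 or more members, 10 of 142 were higher (7.04%) and 15 lower (10.6%). Without scaling, which moved the median of all genes to 0.03, 383 nearest genes were higher (12.4%) and 82 lower (2.65%), against 10.8% and 2.93% of all. Of the 266 higher genes 253 were called under both scalings, and of the 438 lower genes 82. Without knockout library 1, 153 were higher and 170 lower, and without control library 3, 154 and 147.

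Several nearest genes had peaks in every knockout library and none in control. Covered length was 0 in every control library for Olig2, a factor of the oligodendrocyte lineage, and 876, 861 and 889 bp in knockout libraries 1, 2 and 3 (limma adjusted p = 9.6e-04). Its member lay 31979 bp away with 4.17, 5.60 and 3.14. Kcns2, a potassium channel subunit gene, was at 0 in control and 768, 966 and 897 bp in knockout (limma adjusted p = 9.6e-04). Noxa1, an NADPH oxidase activator gene, was at 0 and 977, 968 and 783 bp (limma adjusted p = 9.6e-04). The apolipoprotein L genes Apol7a and Apol10b on chromosome 15 and Myl9, a myosin light chain gene, were also at 0 in control, with knockout means of 991 ± 158, 959 ± 289 and 666 ± 128 bp (SD, n = 3). The 2 apolipoprotein L genes belong to a family of near-identical copies and are uncertain. The knockout and control groups did not overlap for these 6 genes, which was a condition for naming them. Groups did not overlap for 46.9% of tested nearest genes and 49.3% of all genes tested.

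Where the control libraries also had peaks, the values were as follows. Sh3tc2, a gene of peripheral nerve myelination, had 291, 788 and 792 bp in control and 3263, 2926 and 3040 bp in knockout, a log2 difference of 1.92 (SE 0.23, limma adjusted p = 0.0034). Sod3, the extracellular superoxide dismutase, had 236, 0 and 0 bp against 899, 914 and 1290 bp. Lrrc52, a potassium channel auxiliary subunit gene, had 39.6, 96.9 and 69.1 bp against 832, 885 and 1098 bp, and Sh3rf2 0, 210 and 316 bp against 1554, 1503 and 1760 bp. Each of these 10 genes passed without scaling and in every fit made without 1 library (6 fits for 9 of them, 4 for Myl9). With the gene span alone, leaving out the 1 kb on either side, Sh3rf2, Kcns2, Sh3tc2 and Lrrc52 passed. Olig2, Noxa1, Apol7a, Apol10b, Sod3 and Myl9 had too little covered length in the span alone to be tested.

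Other nearest genes had less covered length in knockout. Tal2, a basic helix-loop-helix factor, had 528, 812 and 721 bp in control libraries 1, 2 and 3 and 0 in every knockout library (limma adjusted p = 0.0021). Its member lay 10631 bp away. Syt10, a synaptotagmin gene, had 1143, 739 and 555 bp in control and 0, 189 and 0 bp in knockout (log2 difference -1.62, SE 0.27, limma adjusted p = 0.0097), beside a strong member with 24.6, 22.8 and 13.9. Pign, a gene of GPI-anchor synthesis, fell from 4362, 4442 and 3889 bp to 1443, 1928 and 1912 bp (log2 -1.14, SE 0.11, limma adjusted p = 0.0021), and its member had 13.7, 14.7 and 21.1. Groups were apart in all 3 genes, again a condition for naming them. Susd5 (log2 -1.23, SE 0.15) and Grm5, a glutamate receptor gene (log2 -1.14, SE 0.18), also passed without scaling and in every fit without 1 library, as did Syt10 and Pign in the fits that could be made. With the 50000 strongest peaks of each library alone, Pign had a log2 difference of -0.18 and did not pass (limma adjusted p = 0.44).

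Six3 and Rgs14, a regulator of G protein signaling, had log2 differences of -1.40 (SE 0.27, limma adjusted p = 0.017) and -1.29 (SE 0.27, limma adjusted p = 0.02). Six3, a homeobox factor on the β-cell list, had 876, 1080 and 988 bp in control and 317, 310 and 0 bp in knockout, and did not pass without control library 3 (limma adjusted p = 0.055). Emcn, an endothelial sialomucin, Sertm1 and L1td1 were lower too (log2 -1.10, -1.08 and -1.07), but did not pass without scaling (limma adjusted p = 0.12, 0.064 and 0.052). Each of these 3 also did not pass in at least 3 of the fits without 1 library, where the highest adjusted p were 0.13, 0.067 and 0.054.

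Calls among the listed genes nearest to members are read against all genes tested, of which 15.1% were lower and 6.70% higher with scaling, and 2.93% lower and 10.8% higher without. Of 16 β-cell transcription factors tested, 4 were lower and 1 higher (median log2 difference -0.18, against -0.11 for all genes). Nkx6-1 had 1700, 1457 and 1485 bp in control and 1068, 1043 and 984 bp in knockout (log2 -0.47, SE 0.07, limma adjusted p = 0.0066). Mnx1, a homeobox factor, was lower by the same measure (log2 -0.42, SE 0.07, limma adjusted p = 0.013). Groups did not overlap for Nkx6-1 and Mnx1, and both passed without scaling and without any 1 library. With the 50000 strongest peaks alone, Nkx6-1 (log2 -0.38, limma adjusted p = 0.12) did not pass. Sox4, with 3 members, was lower (log2 -0.28, SE 0.07, limma adjusted p = 0.034) but not without scaling (limma adjusted p = 0.33), and it passed in 1 of 6 fits without 1 library. With Six3 these are the 4 that were lower.

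Of 17 insulin secretion genes tested, 5 were lower (29.4%, against 15.1% of all genes) and 0 higher (against 6.70%), with a median of -0.22. Ins1 had 1871, 1834 and 1955 bp in control and 778, 1200 and 1234 bp in knockout (log2 -0.69, SE 0.13, limma adjusted p = 0.016). Without scaling its adjusted p was 0.059, and without control library 3 it was 0.054. Ins2 had 2044, 2458 and 1688 bp against 1384, 1415 and 1340 bp (log2 -0.48, SE 0.11, limma adjusted p = 0.028), which did not pass without scaling (limma adjusted p = 0.2) and passed in 2 of 6 fits without 1 library. Scg3, a granin, was lower (log2 -0.43, SE 0.06, limma adjusted p = 0.0077) and not past the threshold without scaling (limma adjusted p = 0.092). Vamp2 and Rims2, of vesicle fusion, were the other two, at -0.28 and -0.22, and both were lost without scaling (limma adjusted p = 0.35 and 0.73). In fits without 1 library Vamp2 passed in 1 of 6 and Rims2 in 0. Over the whole insulin secretion list, nearest or not, 12 of 44 genes were lower and 1 higher, and without scaling 1 was lower and 3 higher. This was not particular to that list. Of the whole α-cell list, 5 of 14 genes tested were lower and 1 higher, and without scaling 3 and 1. For the whole list of β-cell transcription factors it was 7 lower and 2 higher of 30, and without scaling 3 and 2.

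Immediate early genes had 4 of 9 lower (Fos, Egr1, Dusp1 and Ier3) and 1 higher (Klf6), with a median of -0.20. That is 44.4% lower and 11.1% higher, beside 15.1% and 6.70% of all genes, over 9 genes. Fos, with 3 members, had 2840, 3143 and 2932 bp in control and 1990, 2219 and 2165 bp in knockout (log2 -0.43, SE 0.07, limma adjusted p = 0.0087), and none of the 4 passed without scaling (limma adjusted p = 0.091 to 0.29). Fos passed in all 6 fits without 1 library, Egr1 in 2, Dusp1 in 1, Ier3 in 2 and Klf6 in 3. Genes of other cells moved both ways. Erg was higher, at 806, 1328 and 1313 bp in control and 2253, 2800 and 2618 bp in knockout (log2 1.00, SE 0.16, limma adjusted p = 0.0087). The α-cell factor Irx2 was lower, at 1818, 1913 and 1903 bp against 1167, 1092 and 1150 bp (log2 -0.60, SE 0.05, limma adjusted p = 0.0016). Both passed without scaling and in all 6 fits without 1 library, but with the 50000 strongest peaks alone Irx2 had a log2 difference of 0.88 (limma adjusted p = 0.44). Among the other listed genes called, Hes1, Vdr, Gpd2, Cdkn1b and Arid1b were lower and did not pass without scaling, while Ldb2, Grin2b and Des were higher and did. Of 8 disallowed genes nearest to members, Oat and Itih5 were higher, of 4 such mesenchymal genes Col1a1 and Prrx1, and none of these 8 and 4 was lower. Over the whole disallowed list, nearest or not, 4 of 23 genes were higher and 2 lower. Oat (log2 0.67, SE 0.12, limma adjusted p = 0.014) did not pass without control library 3 (limma adjusted p = 0.05), and Itih5, Col1a1 and Prrx1 passed in 2, 3 and 2 of 6 such fits.

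Mesenchymal markers had more covered length in knockout, taken over the whole list. Peaks in the 15 genes summed to 16934 to 17309 bp in control and 20455 to 22031 bp in knockout, and only Dcn of the list had no peak in any library. Of 13 tested, 4 were higher and 1 lower, where 6.70% and 15.1% of all genes were called, and the summed lengths were not tested. Macrophage and leukocyte markers summed to 5420 to 7432 bp in control and 6508 to 7298 bp in knockout, and 6 of their 15 genes had no peak, among them Cd68 and Adgre1. Acinar markers summed to 6034 to 8572 and 6927 to 8273 bp. The part of other cells in the gained regions was not tested.

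The regions called in all 6 libraries gave a further measure, since they were never candidates for membership. Those close to a gained region were more often lower in knockout. Within 2 kb of a member, 175 of 744 such regions were lower (23.5%) and 18 higher (2.42%), beside 13.0% lower and 3.32% higher of all 73402 tested (limma adjusted p under 0.05). By distance, 24.6% were lower at up to 1 kb, 22.6% at over 1 to 2 kb, 16.6% at over 2 to 5 kb, 13.0% at over 5 to 10 kb, 13.6% at over 10 to 20 kb, 14.0% at over 20 to 50 kb and 12.6% beyond 50 kb. The 3 bands up to 5 kb had the highest shares. The median log2 difference went from -0.16 to -0.11, so the shift was small in size. Within 10 kb, 653 of 4078 were lower (16.0%) and 124 higher (3.04%). No test was made between the distance groups.

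Without scaling far fewer were called, and the bands up to 2 kb again had the highest shares. There 7.14% were lower at up to 1 kb, 7.61% at over 1 to 2 kb, 3.26% at over 2 to 5 kb, 2.55% at over 5 to 10 kb, 2.58% at over 10 to 20 kb, 3.20% at over 20 to 50 kb and 2.68% beyond 50 kb. Within 2 kb 55 were lower and 25 higher, in place of 175 and 18. Leaving out each library in turn, from 7.66% to 30.1% of those within 2 kb were lower and from 3.80% to 22.3% of those beyond 50 kb. The share within 2 kb was higher in each of these 6 fits, with the top values without control library 2 and the bottom values without knockout library 1. Among regions between genes alone, over 1 and up to 50 kb from spans, 22.9% were lower at up to 1 kb from a member and 10.5% beyond 50 kb. Within 2 kb of a lost region, 27 of 215 were lower (12.6%) and 13 higher (6.05%). Next to regions called in 2 knockout libraries alone 51 of 297 were lower (17.2%), and next to regions of 3 libraries of both genotypes 11 of 121 (9.09%). With the 50000 strongest peaks of each library alone, these sets did not stand apart. Then 84 of 605 were lower within 2 kb of a gained region (13.9%), and 13 of 93 next to regions of 3 libraries of both genotypes (14.0%). It was 11.9% next to regions of 2 knockout libraries, 11.7% next to lost regions and 9.01% beyond 50 kb from a gained region. Joining of peaks could bear on these values, because a broad peak reaching a neighbour would merge with it, and its part was not tested.

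**Figure D5:**
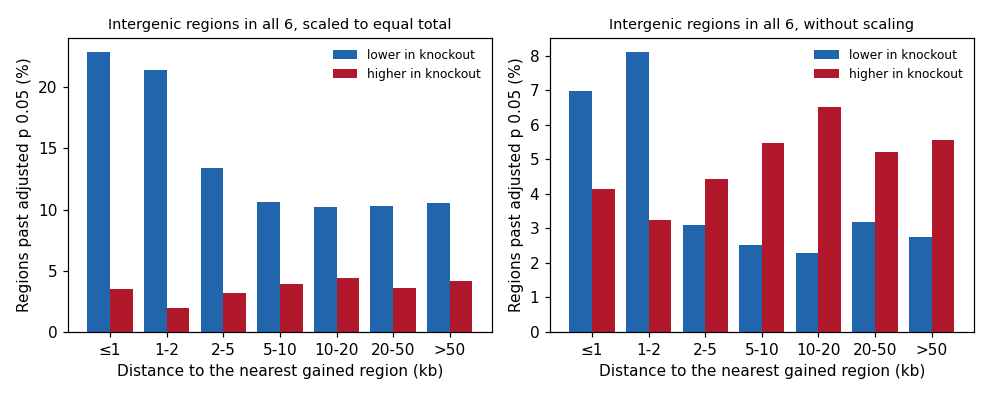
Percent of intergenic regions called in all 6 libraries that were lower (blue) or higher (red) in knockout at adjusted p under 0.05, by distance to the nearest gained region, with covered length scaled to equal total (left) or unscaled (right, different vertical scale). The blue bars are tallest within 2 kb, at 22.9% and 21.4% on the left.

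The largest of these falls within 2 kb, taken after their values were seen, show the arrangement at single loci. At Enpp2, the gene of the lysophospholipase autotaxin, a region at chr15:54979283-54980129 had 914, 731 and 927 bp under peaks in control libraries 1, 2 and 3 and 259, 268 and 272 bp in knockout (log2 -1.03, SE 0.09, limma adjusted p = 0.0037). A gained region began 277 bp further on, at chr15:54980407-54980698. At Rfx6, a region at chr10:51768253-51769611 had 1282, 1157 and 1386 bp in control and 662, 707 and 415 bp in knockout (log2 -0.83, SE 0.13, limma adjusted p = 0.011), 721 bp from the member at chr10:51770333-51770952. At Adarb1, an RNA-editing deaminase gene, a region at chr10:77284103-77285094 had 1090, 929 and 1071 bp against 355, 454 and 474 bp, 840 bp from a member. The groups did not overlap at any of the 3 loci, which the choice of loci required. Regions near Bhlha9 (log2 -0.88) and Galnt14 (log2 -0.87) completed the top 5, at 815 and 564 bp from a member.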

How the data were processed

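The assay was ATAC-seq, in 3 control and 3 Chd4 knockout libraries of sorted mouse β-cells, grouped by the genotype label. Each library has its own deposited narrow peak list. The peak names, per the file headers and names, point to MACS2 on shifted cutting sites; the aligner, the version of the caller and any filter on reads are, for all 6 lists, not given in the sources used here. Coordinates are on mm10, per the submitters' processing notes. According to the labels, fragments above 600 bp were removed. Each deposited peak has a score (unused here), the authors' fold enrichment at its summit (a ratio), and p and q, both deposited as −log10. Being the authors' own, these values served only to describe and rank peaks within a list. The position of the summit came from the same deposited lists. Every list holds peaks with q under 0.05. No read counts are given, so depth is unknown and no counting interval can be given.

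Regions, distances and nearest genes were computed with Python 3.11.15, numpy 2.4.6 and pandas 2.3.3 against 21887 protein-coding gene spans of RefSeq (GRCm38.p6), 20665 of them autosomal. Distance is the number of bases between region and span. Coordinates are 1-based, in mm10. A percentile is the rank of −log10 q within a library's list. Covered length was summed per gene (span plus 1 kb on either side) and per autosomal region called in all 6 libraries, scaled to the mean total, and log2(bp + 300) was tested with limma 3.58.1 (R 4.3.3; empirical Bayes with trend). Genes needed a mean of at least 300 bp, so 3090 of 3487 nearest genes were tested. Fold changes are on this scale, which understates changes at low lengths, and SE is limma's. The scripts were tested on simulated data. Covered length depends on how many peaks were called and is not a read count.

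The members and the 20 gene lists (409 genes, all matched, 1 through a synonym) were chosen with earlier results of these data known. Text names the 10 strongest and 5 widest members, those beside the thresholds, members over noncoding genes, genes with the most members, listed genes nearest to members and the 10 largest called changes in each direction without overlap. Alternatives were other peak thresholds, overlaps, annotations, scalings, pseudocounts and filters, a replicate block, and leaving out each library. Sequences are from RefSeq tables; with no genome used here, other members have none printed. The values of 1 listed gene are not reported here.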

Additional observations from a re-analysis of the deposited data

How the results depend on the processing

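The number of gained intergenic regions was 4378 and stayed within 1.5 times that value, between 4378 and 5393, under a stricter q, a 50% overlap, joining by summits, the spans of all annotated genes and each left-out library (4614 to 5393). With the 50000 strongest peaks of each library there were 1491, which overlapped 555 of the 4378. For nearest genes, higher calls ranged from 153 to 238 over left-out libraries, and lower calls from 147 to 517, against 266 and 438. Lower calls were 82 without scaling and 231 with the 50000 strongest peaks. For regions called in all 6 libraries within 10 kb of a member, higher calls (124) ranged from 50 to 137 and lower calls (653) from 177 to 1105 over left-out libraries. The lower calls were 149 without scaling, and with the 50000 strongest peaks there were 197 higher and 352 lower. Within 5 kb there were 52 and 383, as fewer regions are counted. The cause of the other shifts was not tested.

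Whether replicate numbers pair the samples cannot be settled with 3 libraries per group. The correlations of same-numbered deviations were 0.11, 0.12 and -0.02, and those of unlike numbers ran from -0.17 to 0.06. With the replicate block the nearest genes gave 212 higher and 305 lower, and the shared regions 77 higher and 330 lower. In these correlations, libraries 1 and 2 of each group went best with their own number, and library 3 of each group did not. Of the 48 genes named by the rule, 29 were still called without scaling, 47 with a pseudocount of 100 bp, 42 with the replicate block and 24 to 37 without 1 library, where a few could not be tested. With the 50000 strongest peaks the sign turned for 5: Irx2 (0.88), Arid1b (0.14), Sox4 (0.05), Scg3 (0.03) and Hes1 (0.01), none past the threshold. A further 11 were still called and 16 were not, and the rest had too little covered length to be tested there. The lists hold no reads, so peaks missing in control may lie just under its threshold, and depth limits every count here.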
